A study of Homo sapiens with 6 samples.

Results

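A set of 10 genes that make, recycle and drain S-adenosylmethionine, or that clear dimethylated arginine, were followed in 293T cells, which derive from human embryonic kidney and carry the SV40 large T antigen. They were chosen by name as parts of the pathway, with earlier results of these data known. The genes are MAT2A, MAT2B, AHCY, AHCYL1, AHCYL2, MTR, CBS, DDAH1, DDAH2 and MTAP. They make up 10 of the 60669 genes counted, and all 10 passed the filter that left 17575 genes for testing. The study set cells with an MLL2 knockout made by CRISPR/Cas9 (MLL2 KO) and cells with a PRMT1 knockdown made by short hairpin RNA (PRMT1 KD) against control cells, to find genes whose expression differs when either protein is depleted. Total RNA was sequenced from 2 libraries of each group, 6 in all, described as biological replicates. All groups are the same line, with genotype WT given for the control and no drug treatment for any group. The labels do not give the time after the knockdown, or say if a hairpin was also present in control and knockout cells. Nor do they say if the knockout is 1 clone, so traits of such a clone and effects of the knockout cannot be told apart.

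S-adenosylmethionine (SAM) is the methyl donor of nearly all cellular methyltransferases, among them PRMT1, the main enzyme that places asymmetric dimethylarginine on proteins, and MLL2, which methylates lysine 4 of histone H3. Methionine adenosyltransferase makes SAM from methionine, each methyl transfer leaves S-adenosylhomocysteine, an inhibitor of methyltransferases, and AHCY hydrolyses it to homocysteine, which is either remethylated to methionine by MTR or drawn into cysteine synthesis by CBS. MTAP starts the salvage of methionine from the by-product of polyamine synthesis, and its substrate, when it builds up, inhibits the arginine methyltransferase PRMT5. When proteins carrying dimethylarginine are degraded, the free asymmetric form, an inhibitor of nitric oxide synthases, is hydrolysed by the DDAH enzymes.

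The libraries held 20061471 to 22351532 counts in genes. PRMT1 itself had 38.2 and 34.9 counts-per-million (CPM) in the PRMT1 KD libraries, against 306 and 319 CPM in control libraries, a log2 fold change of -3.10 ± 0.09. In MLL2 KO libraries it had 406 and 425 CPM, higher than control by 0.41 ± 0.08 (adjusted p = 8.9e-04). MLL2 is an older name of KMT2B as well as of KMT2D, and neither gene passed the test in MLL2 KO cells, with log2 fold changes of 0.02 ± 0.25 and 0.19 ± 0.26, so the counts do not show the knockout, which need not lower a transcript. In PRMT1 KD cells both were higher, and by unequal amounts in the 2 libraries: KMT2D had 37.8 and 95.5 CPM there, against 22.5 and 17.0 CPM in control cells. Its log2 fold change was 1.76, and 2.27 without replicate 1 or 0.94 without replicate 2 of the knockdown. For KMT2B the values were 1.49 with both, 1.90 without replicate 1 and 0.91 without replicate 2. All 6 markers chosen for 293T cells had counts in every library, with a summed level of 888 to 892 CPM in MLL2 KO, 1005 to 1085 CPM in PRMT1 KD and 1223 to 1245 CPM in control cells. The markers moved apart: NEFL had 56.6 and 53.3 CPM in PRMT1 KD, 156 and 153 CPM in MLL2 KO, and 347 and 352 CPM in control cells, and VIM had 751 and 694 CPM in PRMT1 KD, 507 and 512 CPM in MLL2 KO, and 490 and 498 CPM in control cells. KRT8 had 6.38 to 7.01 CPM in the depleted libraries and 31.0 and 37.7 CPM in control cells. Markers of blood cells summed to at most 0.290 CPM, those of hepatocytes to at most 1.80 CPM and those of fibroblasts to at most 3.91 CPM, and their part in any result was not tested. As these are bulk samples, fewer cells with a transcript and less of it per cell cannot be told apart.

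Levels between genes were compared per exon length, as transcripts-per-million (TPM), within the control libraries. AHCY stood highest at 242 and 238 TPM. MAT2A, the catalytic subunit of methionine adenosyltransferase outside the liver, had 77.4 and 72.0 TPM, and the methionine synthase MTR had 76.6 and 70.8 TPM. These 2 could not be ordered, since their values overlapped. Then came AHCYL1 with 47.6 and 45.8 TPM, and MAT2B with 32.3 and 28.4 TPM. DDAH1 had 18.7 and 18.2 TPM and MTAP 15.0 and 12.8 TPM. The lower end held CBS with 7.92 and 8.82 TPM, DDAH2 with 7.58 and 6.24 TPM, and AHCYL2 with 4.76 and 3.88 TPM. The level and place of CBS are uncertain, since reads that fit its near-identical copy CBSL equally well are mostly lost. CBSL itself had 7.23 and 7.69 TPM in the control libraries. Apart from MAT2A and MTR, no 2 neighbours in this order overlapped between the control libraries. The lengths were those of all merged exons in the deposited files, 14527 bases for MTAP, against 6122 bases for its principal transcript. With principal transcripts instead, MTAP moved to rank 6 and DDAH1 to rank 8, MAT2B passed AHCYL1, and the first 3 and last 2 genes kept their places.

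**Figure D1:**
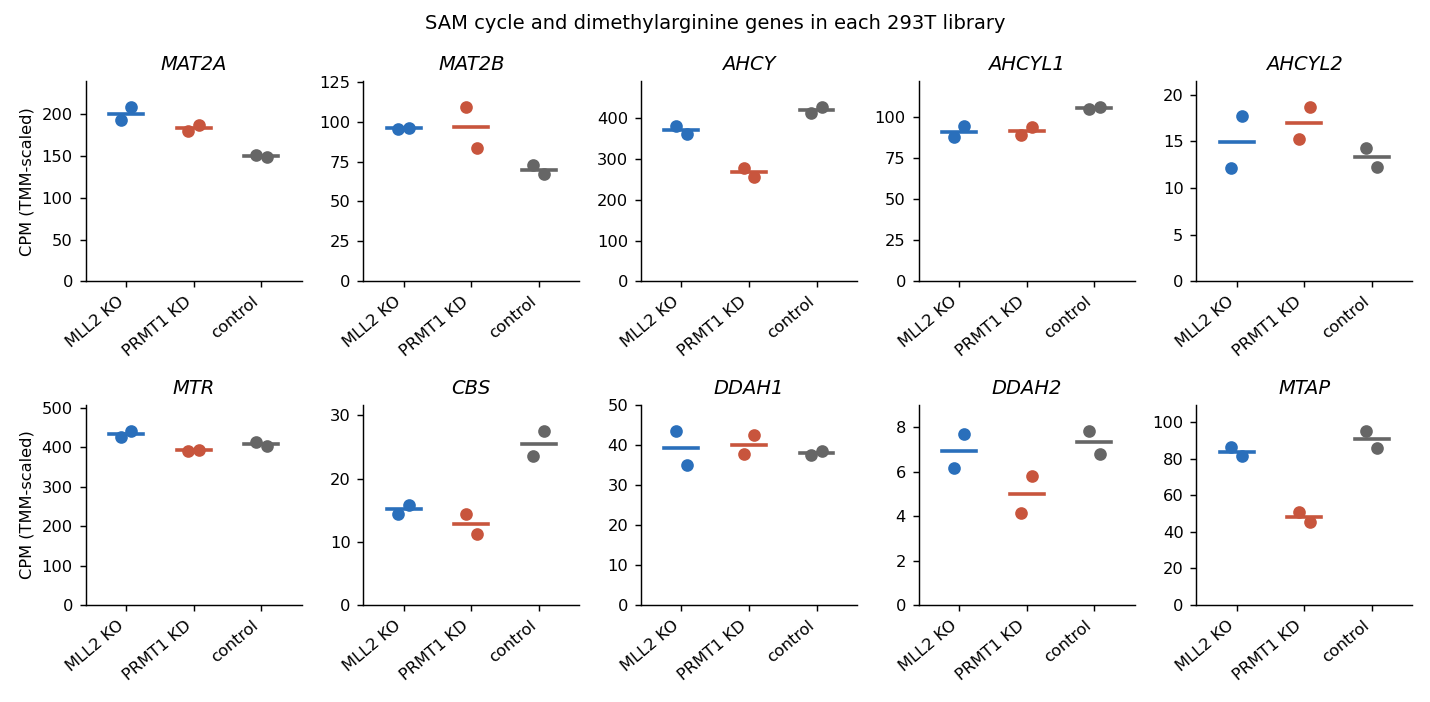
Level of each of the 10 genes in CPM (vertical axes, each starting at 0) in the 2 libraries of MLL2 KO, PRMT1 KD and control cells, with points for libraries and a line for each group mean. MAT2A and MAT2B sat above control in all 4 depleted libraries, CBS below it in all 4, and MTAP and AHCY lowest in the 2 PRMT1 KD libraries.

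The genes for both subunits of the SAM synthase found outside the liver, MAT2A and MAT2B, were higher in both depleted states. MAT2A (chromosome 2, hg38, 85539168 to 85545281, plus strand) had 193 and 209 CPM in MLL2 KO, 180 and 188 CPM in PRMT1 KD, and 152 and 149 CPM in control cells. All 4 depleted libraries lay above both control libraries. The log2 fold change was 0.42 ± 0.08 in MLL2 KO (1.34-fold, adjusted p = 9.0e-04, by edgeR's quasi-likelihood test, adjusted by Benjamini-Hochberg across the 17575 genes, as for every adjusted p here) and 0.29 ± 0.08 in PRMT1 KD (1.22-fold, adjusted p = 0.006). Errors after a log2 fold change are standard errors, with n = 2 libraries a group. The PRMT1 KD call depended on having both control libraries: the value was 0.30 (adjusted p = 0.0538) without control replicate 1 and 0.27 (adjusted p = 0.0837) without control replicate 2. Between the depletions themselves, PRMT1 KD minus MLL2 KO, the difference was -0.13 (95% interval -0.30 to 0.04, adjusted p = 0.222).

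MAT2B, the subunit that regulates MAT2A (chromosome 5, 163503114 to 163519354, plus strand), had 95.3 and 96.2 CPM in MLL2 KO, 109 and 83.7 CPM in PRMT1 KD, and 72.6 and 67.1 CPM in control cells. It too was above both controls in every depleted library, though the 2 knockdown libraries differed more from each other than those of the other groups. It rose by a log2 fold change of 0.46 ± 0.11 in MLL2 KO (adjusted p = 0.00391) and of 0.46 ± 0.11 in PRMT1 KD (adjusted p = 0.00113). The PRMT1 KD value was 0.26 without replicate 1 of the knockdown and 0.64 without replicate 2, and called both times. In MLL2 KO the call was lost without control replicate 2, where the value was 0.40 (adjusted p = 0.0759). PRMT1 KD minus MLL2 KO was 0.01 (95% interval -0.21 to 0.23).

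The 3′ untranslated region (UTR) of MAT2A carries hairpins that the RNA methyltransferase METTL16 binds and methylates, and this contact is known to tie splicing and stability of MAT2A RNA to the level of SAM. The sites are shown because METTL16 was itself among the genes that changed. A search of the principal MAT2A transcript of GENCODE 29, 2819 bases long, for TACAGANAA on the sense strand found 6 matches, all in its 3′ UTR of 1508 bases. They are printed from the plus strand of hg38, as DNA letters with 10 bases on each side, and the capitals mark the match.
MAT2A site 1, chr2:85543802-85543830: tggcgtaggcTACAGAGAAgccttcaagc
MAT2A site 2, chr2:85544589-85544617: tgtgatgtcaTACAGAGAAgtcacagggc
MAT2A site 3, chr2:85544774-85544802: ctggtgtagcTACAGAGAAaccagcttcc
MAT2A site 4, chr2:85544889-85544917: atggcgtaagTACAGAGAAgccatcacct
MAT2A site 5, chr2:85545004-85545032: caaggtgtccTACAGAAAAaccttgggtt
MAT2A site 6, chr2:85545112-85545140: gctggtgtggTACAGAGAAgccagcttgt
In sites 1 to 4 and 6 the match read with G at the open letter, and in site 5 with A. Of 20369 principal transcripts searched, 2039 held at least 1 match on the sense strand and 3, MAT2A among them, held 6 or more. The others were TTN, with 6 matches in 101518 bases, and MUCL3, with 24 in 5314 bases. A match is a run of letters, not a measured binding site. METTL16 had 105 and 108 CPM in PRMT1 KD, 79.0 and 76.1 CPM in MLL2 KO, and 69.9 and 69.3 CPM in control cells. It rose by a log2 fold change of 0.62 ± 0.09 in PRMT1 KD (adjusted p = 6.3e-06), while the value of 0.16 ± 0.09 in MLL2 KO did not pass (adjusted p = 0.222), and PRMT1 KD was above MLL2 KO by 0.46 (adjusted p = 2.2e-04). Counts per gene do not show which MAT2A introns were kept.

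AHCY, the S-adenosylhomocysteine hydrolase, was lower in PRMT1 KD cells. The gene (chromosome 20, 34280268 to 34311802, minus strand) had 279 and 256 CPM in PRMT1 KD, 381 and 362 CPM in MLL2 KO, and 413 and 428 CPM in control cells. The 3 groups did not overlap, and the knockdown libraries were lowest. AHCY fell in PRMT1 KD by a log2 fold change of 0.65 ± 0.08 (1.57-fold lower, adjusted p = 1.2e-06). In MLL2 KO the value of -0.18 ± 0.08 did not pass (adjusted p = 0.121, 95% interval -0.35 to -0.01), and it passed when MLL2 KO and control libraries were fitted alone (-0.17, adjusted p = 0.00844) or without either knockdown library. PRMT1 KD was below MLL2 KO by a log2 difference of -0.47 ± 0.08 (adjusted p = 8.0e-05).

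AHCYL1 and AHCYL2 resemble AHCY but are not known to hydrolyse S-adenosylhomocysteine. AHCYL1 binds the inositol trisphosphate receptor and is also called IRBIT (chromosome 1, 109984765 to 110023742, plus strand). It had 87.8 and 94.4 CPM in MLL2 KO, 89.1 and 94.2 CPM in PRMT1 KD, and 105 and 106 CPM in control cells. All 4 depleted libraries lay below the controls, but the log2 fold changes of -0.21 ± 0.09 (adjusted p = 0.0853) and -0.20 ± 0.09 (adjusted p = 0.0591) missed the threshold in MLL2 KO and in PRMT1 KD. The MLL2 KO value passed in a fit of MLL2 KO and control alone (adjusted p = 0.0228), and the PRMT1 KD value without replicate 2 of the knockdown (-0.24, adjusted p = 0.0236). AHCYL2 (chromosome 7, 129225023 to 129430211, plus strand) had 12.2 and 17.7 CPM in MLL2 KO, 15.2 and 18.7 CPM in PRMT1 KD, and 14.3 and 12.3 CPM in control cells. Its groups overlapped for MLL2 KO (0.17 ± 0.19, adjusted p = 0.566), and for PRMT1 KD the value was 0.35 ± 0.18 (adjusted p = 0.12, 95% interval -0.03 to 0.74). Without replicate 1 of the knockdown that value was 0.49 (adjusted p = 0.0367).

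At the homocysteine branch point, CBS, at the entry to transsulfuration, was lower in both depletions, and MTR did not pass the test in either. MTR (chromosome 1, 236795292 to 236921278, plus strand) had 426 and 442 CPM in MLL2 KO, 391 and 394 CPM in PRMT1 KD, and 414 and 403 CPM in control cells. The knockout libraries lay just above the controls and the knockdown libraries just below. The log2 fold changes of 0.09 ± 0.08 in MLL2 KO (95% interval -0.07 to 0.25, adjusted p = 0.462) and -0.06 ± 0.08 in PRMT1 KD (95% interval -0.22 to 0.11, adjusted p = 0.577) did not pass. PRMT1 KD minus MLL2 KO was -0.15 (adjusted p = 0.146). It was -0.29 (adjusted p = 0.00312) after a correction for exon length, and it passed without replicate 1 (adjusted p = 0.0474) or replicate 2 (adjusted p = 0.0431) of the knockdown.

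CBS, cystathionine beta-synthase (chromosome 21, 43053191 to 43076943, minus strand), had 14.5 and 15.8 CPM in MLL2 KO, 14.4 and 11.3 CPM in PRMT1 KD, and 23.5 and 27.6 CPM in control cells. Every depleted library was below both controls. CBS fell by a log2 fold change of 0.75 ± 0.16 in MLL2 KO (1.68-fold lower, adjusted p = 0.00162) and by 0.99 ± 0.16 in PRMT1 KD (1.99-fold lower, adjusted p = 2.9e-05). PRMT1 KD minus MLL2 KO was -0.24 (95% interval -0.58 to 0.10, adjusted p = 0.255). The hg38 annotation used holds a near-identical copy of CBS, named CBSL, on the same chromosome (6444869 to 6468040, minus strand). The count of CBS thus holds only the reads that could be placed and is uncertain. CBSL had 9.25 and 9.22 CPM in MLL2 KO, 5.80 and 7.29 CPM in PRMT1 KD, and 12.7 and 14.2 CPM in control cells. With the counts of both summed, the log2 fold change was -0.68 ± 0.13 in MLL2 KO (adjusted p = 5.8e-04) and -1.01 ± 0.13 in PRMT1 KD (adjusted p = 2.0e-06), and PRMT1 KD was below MLL2 KO by a difference of -0.33 ± 0.13 (adjusted p = 0.0452).

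MTAP, methylthioadenosine phosphorylase (chromosome 9, 21802636 to 21937651, plus strand), changed in PRMT1 KD. It had 50.8 and 45.3 CPM in PRMT1 KD, 86.5 and 81.1 CPM in MLL2 KO, and 95.1 and 85.7 CPM in control cells. The knockdown libraries were the lowest pair by a wide margin, while MLL2 KO and control libraries overlapped. The log2 fold change was -0.91 ± 0.10 in PRMT1 KD (1.88-fold lower, adjusted p = 1.6e-07) and -0.11 ± 0.10 in MLL2 KO (95% interval -0.31 to 0.09, adjusted p = 0.457). PRMT1 KD was below MLL2 KO by a difference of -0.80 ± 0.10 (adjusted p = 1.3e-06). Of its merged exons 7.87% were shared with 2 other genes on the same strand, which had 0 or 1 count in each library.

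The dimethylarginine hydrolases showed no call in either depletion. DDAH1 (chromosome 1, 85318481 to 85578363, minus strand) had 43.5 and 35.0 CPM in MLL2 KO, 37.7 and 42.5 CPM in PRMT1 KD, and 37.5 and 38.4 CPM in control cells, and its groups overlapped throughout. Its log2 fold changes were 0.05 ± 0.12 in MLL2 KO (95% interval -0.20 to 0.30, adjusted p = 0.812) and 0.08 ± 0.12 in PRMT1 KD (95% interval -0.17 to 0.33, adjusted p = 0.614). Changes of the size seen for MTAP or CBS in PRMT1 KD lay outside both intervals. DDAH2 (chromosome 6, 31727038 to 31730617, minus strand) was the least counted, with 86 to 157 counts a library. It had 4.16 and 5.79 CPM in PRMT1 KD, 6.15 and 7.70 CPM in MLL2 KO, and 7.83 and 6.79 CPM in control cells, so the knockdown libraries lay below all others. The value of -0.55 ± 0.25 in PRMT1 KD missed the threshold (95% interval -1.07 to -0.04, adjusted p = 0.0717), and that of -0.08 ± 0.24 in MLL2 KO had an interval of -0.58 to 0.42. Without replicate 2 of the knockdown the PRMT1 KD value was -0.81 (adjusted p = 0.0193) and without replicate 1 it was -0.34 (adjusted p = 0.331). With a term for the replicate number it was -0.57 (adjusted p = 0.0498), so the call depended on single libraries and on the model.

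Exon length moved with the PRMT1 KD values. Across the 11509 genes that averaged over 2 in log2 CPM, PRMT1 KD had a median log2 fold change of -0.45 for those under 1000 exon bases, -0.15 for 2000 to 4000 bases and 0.16 for 8000 bases and over, while the medians in MLL2 KO ran from -0.05 to 0.04. DDAH2, with 2363 exon bases, had -0.26 (adjusted p = 0.406) in PRMT1 KD after a correction for length. AHCY, with 3894 exon bases, kept a value of -0.51 (adjusted p = 5.5e-06), and MTAP, in the longest class, had -1.08 (adjusted p = 2.0e-08). MTAP is in that class by its 14527 merged exon bases, against 6122 bases in its principal transcript, so the size of its correction is uncertain. MAT2A stood at 0.38 (adjusted p = 3.5e-04) and MAT2B at 0.52 (adjusted p = 2.2e-04) on the same scale, beside 0.29 and 0.46 without the correction. Over all genes in PRMT1 KD the median shift with the length correction was 0.09, and single genes moved up or down. AHCY and DDAH2 also moved upward, and MTAP and MTR downward, so upward shifts are not particular to MAT2A and MAT2B. Corrected for GC content and length together, which moved the median of all genes in PRMT1 KD by 0.11, MTR was called in PRMT1 KD at -0.20 (adjusted p = 0.0172).

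**Figure D2:**
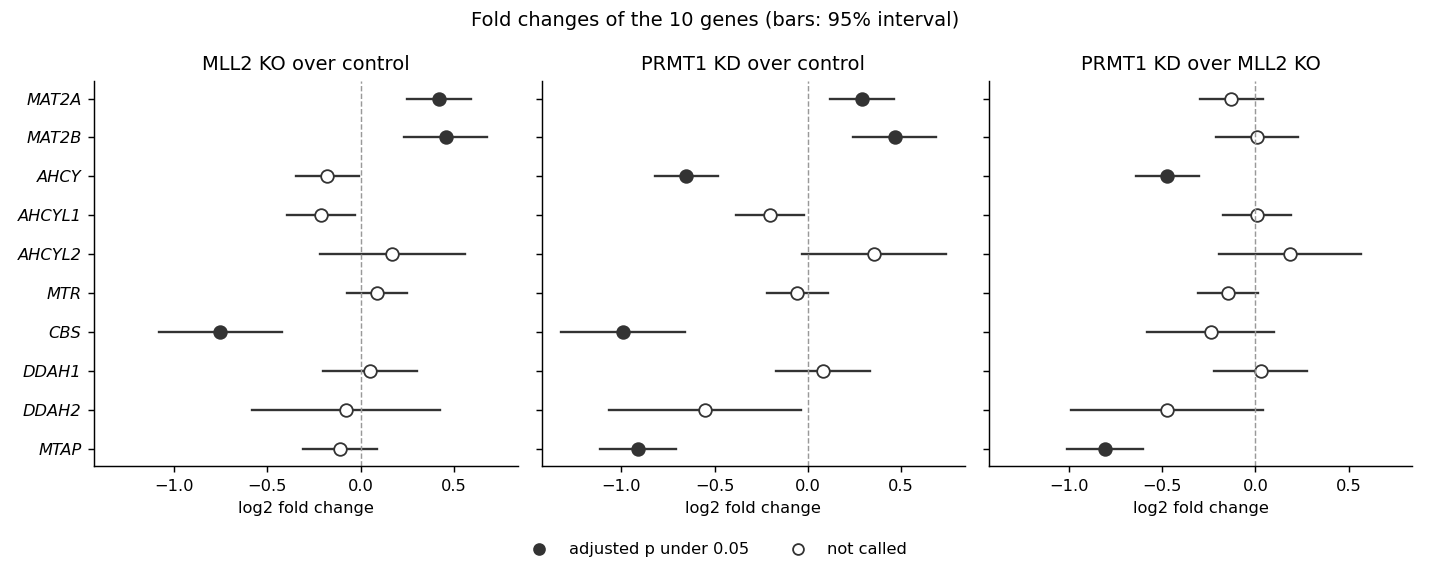
Log2 fold changes (horizontal axes) of the 10 genes in MLL2 KO over control, PRMT1 KD over control and PRMT1 KD over MLL2 KO, with bars for the 95% interval and filled points for an adjusted p under 0.05. MAT2A and MAT2B were above 0 and CBS below it in both comparisons with control, and AHCY and MTAP were below 0 in PRMT1 KD against either other group.

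Counted together, 2 of the 10 genes were higher in MLL2 KO than in control (MAT2A, MAT2B), 1 was lower (CBS) and 7 did not pass. Of all genes tested, 22.4% were called in that comparison, 10.3% higher and 12.1% lower. In PRMT1 KD, 2 genes were higher (MAT2A, MAT2B), 3 were lower (AHCY, CBS, MTAP) and 5 did not pass, where 47.4% of all genes were called, 22.2% higher and 25.3% lower. The excess of lower calls among all genes in PRMT1 KD, 4439 against 3899 higher, turned round with the length correction (4653 higher and 3894 lower) and with that for GC content and length (4634 higher and 4019 lower). It was also nearly gone with RLE scaling (4217 higher and 4224 lower) and with DESeq2 (3700 and 3683), and stayed with a replicate block (4095 and 4615). In MLL2 KO the excess of lower calls turned round with RLE scaling (2054 higher and 2044 lower), DESeq2 (1809 and 1647) and the length correction (2333 and 2128). The median shifts over all genes in PRMT1 KD were 0.09 with the length correction and 0.11 with that for GC content and length. The shares of 30% in MLL2 KO and 50% in PRMT1 KD are near these backgrounds, and so are not a result about the 10 genes as a group. In PRMT1 KD against MLL2 KO, 0 were higher, 2 were lower (AHCY, MTAP) and 8 did not pass, with 40.7% of all genes called, 19.4% higher and 21.4% lower. CBS, among these 8, passed as lower when the counts of CBSL were added. The median log2 fold change of the 10 was -0.01 in MLL2 KO and -0.13 in PRMT1 KD, beside -0.01 and -0.04 for all genes tested. Both comparisons share the control libraries. The MLL2 KO count became 5 (2 higher, 3 lower) in a fit of MLL2 KO and control alone, and also without replicate 1 or replicate 2 of PRMT1 KD, where calls among all genes were 5386, 5369 and 5492, against 3941 with all libraries. The count between the depletions became 4 without replicate 2 of PRMT1 KD.

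Ratios of TPM within a library set genes against each other without a scaling between libraries. MAT2A over AHCY, the enzyme that makes SAM over the one that clears the product of its use, was 0.440 and 0.501 in MLL2 KO, 0.560 and 0.635 in PRMT1 KD, and 0.319 and 0.302 in control cells. The 3 groups did not overlap, and PRMT1 KD was highest. MAT2A over its partner MAT2B was 2.32 and 2.49 in MLL2 KO, 1.89 and 2.56 in PRMT1 KD, and 2.40 and 2.54 in control cells, with all groups overlapping. MTR over CBS, remethylation over transsulfuration, was 16.2 and 15.3 in MLL2 KO, 14.9 and 19.2 in PRMT1 KD, and 9.68 and 8.02 in control cells, higher in each depleted library than in either control. The size of this ratio is uncertain, since CBS was counted without CBSL. AHCY over the sum of AHCYL1 and AHCYL2 was 3.59 and 3.07 in PRMT1 KD, 5.09 and 4.35 in MLL2 KO, and 4.62 and 4.80 in control cells, so only the knockdown libraries lay apart from the control values. DDAH1 over DDAH2 was 4.67 and 3.78 in PRMT1 KD, 3.65 and 2.34 in MLL2 KO, and 2.46 and 2.91 in control cells. These ratios were not tested. They are not corrected for the movement of PRMT1 KD values with exon length, which can shift ratios of genes of unlike length. Such pairs are DDAH1 (4587 exon bases) with DDAH2 (2363), and MTR (12357) with CBS (6786). With 2 libraries a group, no exact permutation test of a single ratio between 2 groups could reach p under 0.05.

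**Figure D3:**
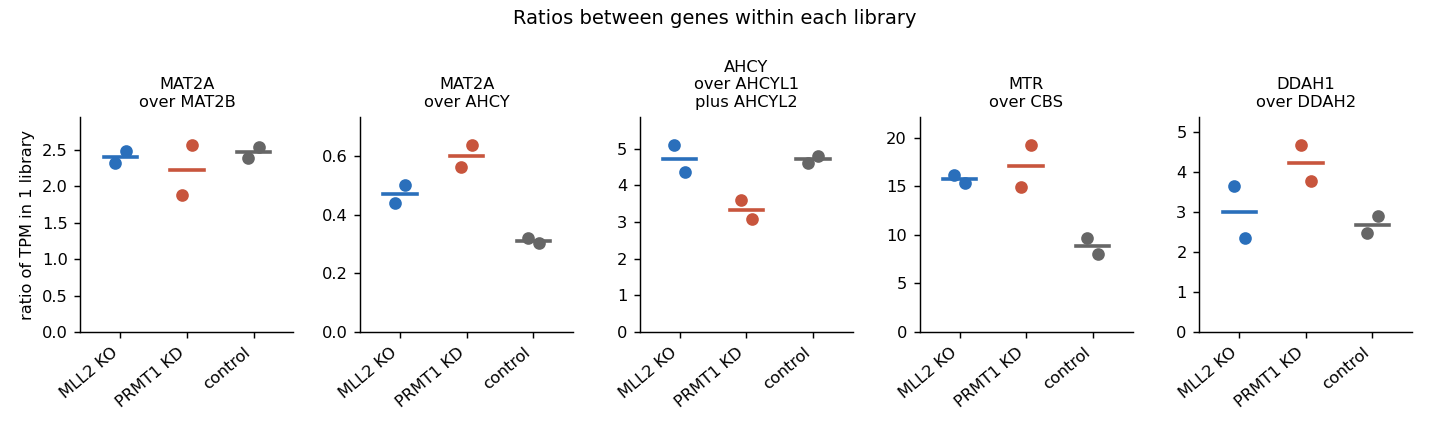
TPM ratios between the genes (vertical axes, each starting at 0) in each library of MLL2 KO, PRMT1 KD and control cells, with points for libraries and a line for each group mean. MAT2A over AHCY was 0.440 to 0.635 in the depleted libraries and 0.302 to 0.319 in controls, and MTR over CBS was 14.9 to 19.2 against 8.02 to 9.68.

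A further 60 genes of connected steps were listed with earlier results of these data known, and 49 passed the filter. The shares of all genes are thus given for scale only. A higher share in a list, here and in the paragraphs below, cannot be read as an enrichment. In MLL2 KO 9 were higher and 11 lower (40.8%, beside 22.4% of all genes), with a median log2 fold change of 0.07. In PRMT1 KD 11 were higher and 22 lower (67.3%, beside 47.4% of all genes), with a median of -0.24, and in PRMT1 KD against MLL2 KO 7 were higher and 20 lower (55.1%, beside 40.7%). The split in PRMT1 KD was 14 higher and 17 lower with the length correction, and 15 higher and 18 lower with that for GC content and length. The MLL2 KO count of 20 became 11 without either control library and 12 without MLL2 KO replicate 1. CTH, cystathionine gamma-lyase, which takes the product of CBS to cysteine, had 21.3 and 18.4 CPM in MLL2 KO, 18.5 and 18.4 CPM in PRMT1 KD, and 46.8 and 46.5 CPM in control cells. It fell by log2 fold changes of 1.23 ± 0.12 in MLL2 KO (adjusted p = 5.9e-07) and 1.33 ± 0.12 in PRMT1 KD (adjusted p = 2.5e-08), and the difference between the depletions was -0.10 (adjusted p = 0.558), or 0.15 (adjusted p = 0.357) with the length correction. GSS, glutathione synthetase, fell in both (-0.67 in MLL2 KO and -0.93 in PRMT1 KD). Of the 7 genes listed for transsulfuration and its products, 3 were higher and 2 lower in MLL2 KO (71.4% called), and 1 was higher and 4 lower in PRMT1 KD (71.4%). The 1 higher in PRMT1 KD was GCLM, the modifier subunit of glutamate-cysteine ligase, at 57.4 and 63.9 CPM in PRMT1 KD, against 25.6 and 18.3 CPM in control cells. The 3 higher in MLL2 KO were GCLM (0.62, adjusted p = 0.0025), CDO1 (0.52, adjusted p = 0.0357) and GCLC (0.35, adjusted p = 0.0129). For GCLM the MLL2 KO value was 0.40 without control replicate 2.

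Around MTAP, the 15 genes of polyamine synthesis and methionine salvage were counted: 2 were higher and 3 lower in MLL2 KO (33.3%, beside 22.4% of all genes), and 3 were higher and 8 lower in PRMT1 KD (73.3%, beside 47.4%). Spermine synthase SMS, whose reaction releases the substrate of MTAP, had 121 and 105 CPM in PRMT1 KD, 201 and 185 CPM in MLL2 KO, and 193 and 187 CPM in control cells. Its log2 fold change was -0.75 ± 0.09 in PRMT1 KD (adjusted p = 6.0e-07) and 0.02 ± 0.09 in MLL2 KO (adjusted p = 0.891), and PRMT1 KD was below MLL2 KO by -0.77. Other genes of polyamine synthesis did not fall with it. Spermidine synthase SRM did not pass in PRMT1 KD (0.12, adjusted p = 0.492), and AMD1 was higher there (0.25, adjusted p = 0.0165). MRI1 and APIP act after MTAP in the salvage route. In PRMT1 KD they had log2 fold changes of -0.37 and -0.64, both called, the first no longer so with the correction for GC content and length (-0.17, adjusted p = 0.0551). In contrast ADI1, the dioxygenase near the end of the route, was higher in MLL2 KO (0.56) and in PRMT1 KD (0.48).

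Of the 10 tested genes for the methionine cycle and remethylation, 2 were higher and 1 lower in MLL2 KO (30%, beside 22.4% of all genes), and 4 were higher and 3 lower in PRMT1 KD (70%, beside 47.4%). LMBRD1, needed to export cobalamin, the cofactor of MTR, from lysosomes, fell in both (-0.84 in MLL2 KO and -0.65 in PRMT1 KD). Other genes of this list went both ways. CD320 was called higher in both (0.48 in MLL2 KO and 0.37 in PRMT1 KD). ABCD4 was called higher in PRMT1 KD (0.53), MMADHC higher in MLL2 KO (0.27), and MMACHC lower in PRMT1 KD (-0.66). MTRR, which reactivates MTR, was called in PRMT1 KD (0.31, adjusted p = 0.0156) and not in MLL2 KO (0.26, adjusted p = 0.0638). Its PRMT1 KD call was lost without control replicate 1 (adjusted p = 0.136) or replicate 2 (adjusted p = 0.0621). MAT1A, the liver form of the SAM synthase, had no count in either PRMT1 KD library, against 29 and 7 counts in control cells, at least 6.47-fold lower with the knockdown set at a floor of 3 counts per library, and at least 2.49-fold lower against control replicate 2 alone. Its call was lost without control replicate 1 (adjusted p = 0.0628). Among the 7 tested genes for small-molecule methyltransferases and SAM transport, 1 was higher and 3 lower in MLL2 KO (57.1%), and 2 were higher and 4 lower in PRMT1 KD (85.7%). GAMT, which makes creatine with SAM, had a log2 fold change of -1.36 in PRMT1 KD and was below MLL2 KO there by -1.03. Next to the DDAH genes, of 10 tested for methylarginine transport and nitric oxide, 1 was higher and 2 lower in MLL2 KO (30%), and 1 was higher and 3 lower in PRMT1 KD (40%). ASS1, which renews arginine from citrulline, the product of DDAH, had 15.6 and 16.3 CPM in MLL2 KO, 25.6 and 20.5 CPM in PRMT1 KD, and 119 and 113 CPM in control cells. Its log2 fold changes of -2.86 ± 0.12 in MLL2 KO (adjusted p = 1.7e-12) and -2.33 ± 0.11 in PRMT1 KD (adjusted p = 2.7e-12) were larger than those of any of the 10 genes. Of the listed genes, AGXT2, ARG1, ASMT, BHMT, BHMT2, NNMT and NOS1 (7 in all) had 0 counts in all 6 libraries.

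**Figure D4:**
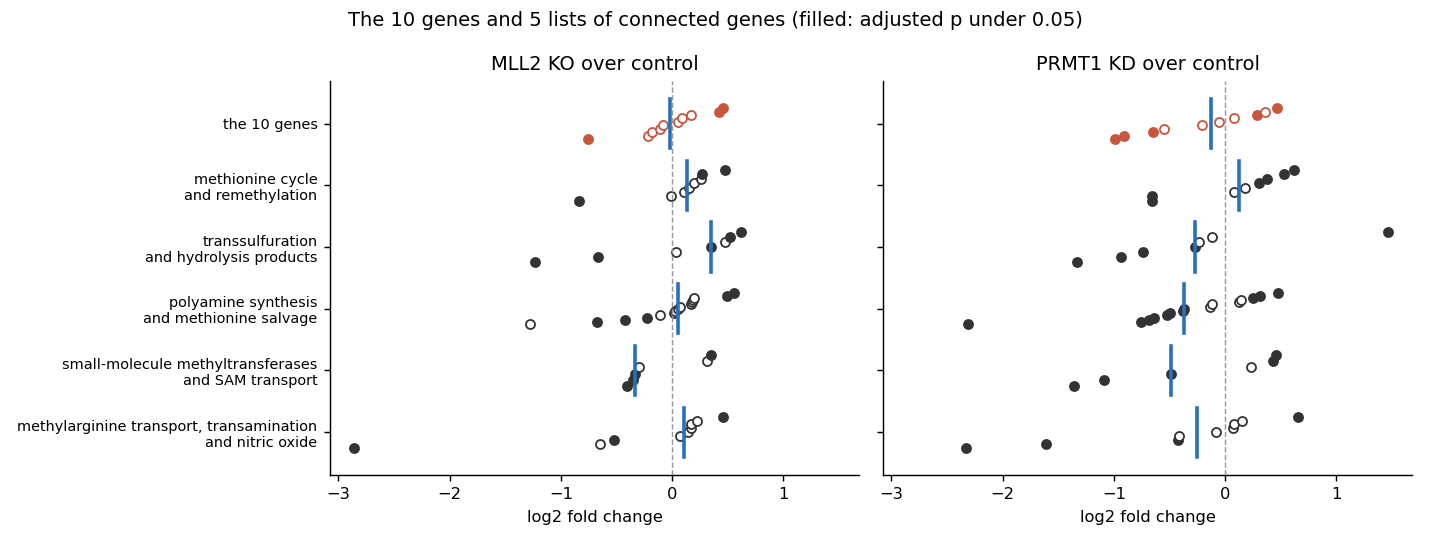
Log2 fold changes (horizontal axes) in MLL2 KO over control and PRMT1 KD over control for the 10 genes and 5 lists of connected genes, with 1 point per gene whose average log2 CPM in edgeR was above 0, filled where the adjusted p was under 0.05, and a vertical bar at the median over all tested genes of the list. The polyamine and salvage list had 8 genes called lower in PRMT1 KD and 3 in MLL2 KO, and ASS1 is the lowest point in both panels.

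The levels of neighbouring genes were set beside some of the 10. Within 5 Mb of CBS, 46 other tested genes had a median log2 fold change of 0.04 in MLL2 KO and -0.08 in PRMT1 KD, against -0.75 and -0.99 for CBS. Around MTAP the 16 neighbours had medians of 0.16 in MLL2 KO and 0.22 in PRMT1 KD, and around AHCY the 72 neighbours had 0.04 and 0.06. Around DDAH2, 117 neighbours had -0.04 in MLL2 KO and -0.25 in PRMT1 KD, a lower median for PRMT1 KD as for DDAH2 itself. By the root mean square difference of centred log2 CPM over the 6 libraries, among 11509 genes, the pattern most like that of MAT2A was ACTB, the cytoplasmic beta-actin (0.0124), followed by KIF1C (0.0367) and ABCF1 (0.0390). For AHCY the nearest were NDUFB7 (0.0234), PRPS2 (0.0236) and FIS1 (0.0238), and for DDAH1 they were TAPT1 (0.0367), ANKRD26 (0.0489) and STX5 (0.0612).

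The start regions of MAT2A and MTAP are shown, since one rose in both depletions and the other fell in PRMT1 KD, and each has a single start window in RefSeq (GRCh38.p14). The windows run from 250 bases before to 50 bases after the start on the plus strand, chr2:85538918-85539217 for MAT2A and chr9:21802386-21802685 for MTAP. Capitals mark the GC box GGGCGG and the CCAAT box CCAAT on either strand, so that CCGCCC and ATTGG are the same boxes read from the other strand, and no 2 of the matches overlapped.
MAT2A start region: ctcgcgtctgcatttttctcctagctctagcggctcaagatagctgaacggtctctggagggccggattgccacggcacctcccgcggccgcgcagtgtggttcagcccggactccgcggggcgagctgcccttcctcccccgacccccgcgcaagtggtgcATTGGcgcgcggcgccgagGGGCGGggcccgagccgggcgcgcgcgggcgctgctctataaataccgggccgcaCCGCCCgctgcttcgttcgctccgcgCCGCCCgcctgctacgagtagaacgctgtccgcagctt
MTAP start region: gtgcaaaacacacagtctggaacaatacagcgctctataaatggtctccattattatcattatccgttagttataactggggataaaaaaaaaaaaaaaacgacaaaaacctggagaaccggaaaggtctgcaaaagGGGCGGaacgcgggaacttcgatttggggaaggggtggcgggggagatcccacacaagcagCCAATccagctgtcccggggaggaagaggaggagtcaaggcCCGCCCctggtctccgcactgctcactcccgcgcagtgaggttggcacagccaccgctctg
The MAT2A window is 71.0% G or C with 43 CpG sites, and the MTAP window 53.0% with 15, beside medians of 58.7% and 14 over all 35116 windows. A GC box was in 45.0% of all windows and in 14 of the 27 windows of the 10 genes, which covered 9 of them. A CCAAT box was in 34.6% of all windows and in 9 of the 27. The E-box CACGTG, in 7.26% of all windows, was in 0 of the 27, and the composite element TGATGNAA, bound by ATF4 complexes, in 3.62% of all windows, was in 1, that of AHCYL2. These matches are descriptions of the letters in the windows and say nothing of binding.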

How the data were processed

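Total RNA of 293T cells was extracted with TRIzol and made into libraries with the TruSeq Stranded Total RNA Gold kit, per the labels' protocols. The deposited files, 1 per library, hold the authors' raw counts of reads per gene. Per the file headers they were made with featureCounts 2.0.1 and GENCODE 34, on paired reads with a mapping quality of at least 10 and reverse-stranded counting, so antisense reads stay apart and reads of near-identical copies are mostly lost. Per the submitters' processing notes, the tools were FastQC 0.11.4, Trim Galore 0.6.10, STAR 2.7.5a, featureCounts 1.5.0-p1 and DESeq2 1.36.0, with hg38. The 2 sources differ in the featureCounts version. The headers name the alignments WTshNT (control), MKshNT (MLL2 KO) and WTshPR (PRMT1 KD), which the labels do not explain.

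Genes were filtered with filterByExpr, scaled by TMM and fitted over all 6 libraries with a term per group in edgeR 4.0.16 under R 4.3.3 (quasi-likelihood test, 3 residual degrees of freedom). Calls are at a Benjamini-Hochberg adjusted p under 0.05 over 17575 genes, and the same procedure was tested on simulated data. The libraries of a group differed beyond sampling noise, with a chi-square per degree of freedom of 5.50 in control, 4.41 in MLL2 KO and 12.5 in PRMT1 KD. Each was counted as a replicate, as described by the submitters. The p-values rest on 1 spread per gene, pooled over the 3 groups and moderated by that of other genes. The tests of the 10 genes thus had 20.6 degrees of freedom. The pooled spread takes no account of the larger differences between the PRMT1 KD libraries. CPM uses TMM-scaled totals, and TPM uses the exon lengths in the files. Alternatives were RLE scaling, DESeq2 1.42.0, other filters, compared groups alone, a replicate block, a length correction and leaving out each library. A GC and length correction and summing CBS with CBSL were added after seeing the data. The 10 genes and the lists were chosen with earlier results of these data known. Named besides them are the targeted genes, per list and comparison up to 3 called genes a direction with the smallest adjusted p, the 3 nearest patterns, and CBSL. MTRR, SRM and the genes at 0 were chosen after their values were seen. GENCODE 29 supplied names, GC content and principal transcripts, and RefSeq the start windows.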

Additional observations from a re-analysis of the deposited data

How the results depend on the processing

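Of 423 pairs of a fold change of the 10 genes and an alternative, 386 kept their direction and side of the threshold, 18 came to pass it, 3 ceased to pass it (MAT2A in PRMT1 KD without either control library, MAT2B in MLL2 KO without control replicate 2), and 16 changed sign, with 0 of those 16 called before or after. With the correction for GC content and length, the values in MLL2 KO were -0.012 for DDAH1, 0.016 for DDAH2 and -0.0013 for SMS. OAZ1, an inhibitor of polyamine synthesis, turned from -0.12 (adjusted p = 0.242) in PRMT1 KD to 0.061 with the length correction and 0.18 (adjusted p = 0.0406) with that for GC content and length, and CTH in PRMT1 KD minus MLL2 KO was 0.15 and 0.14 under the same corrections. The cause of these changes was not tested.

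Leaving out each library in turn, MLL2 KO minus control ran from -0.12 to 0.42 for AHCYL2, -0.11 to 0.21 for DDAH1, -0.24 to 0.077 for DDAH2, -0.054 to 0.10 for KMT2B, -1.73 to 0.32 for MAT1A and -0.039 to 0.089 for SMS. DDAH1 in PRMT1 KD ran from -0.010 to 0.16. PRMT1 KD minus MLL2 KO ran from -0.20 to 0.19 for MAT2B, -0.052 to 0.054 for AHCYL1, -0.071 to 0.47 for AHCYL2, -0.13 to 0.19 for DDAH1, -0.0057 to 0.34 for LMBRD1, -0.028 to 0.10 for MTRR and -0.19 to 0.0050 for ADI1. The 10 genes had 2 to 5 calls in MLL2 KO, 4 to 7 in PRMT1 KD and 2 to 4 between the depletions, and 5 in MLL2 KO with that group and control fitted alone. For all genes there were 1908 to 5492 calls in MLL2 KO, against 3941 with all libraries, and for the 60 connected genes 11 to 26, against 20. Of all genes in MLL2 KO, 2157 and 1908 were called with control replicate 1 or 2 left out, and 2184 and 2255 with MLL2 KO replicate 1 or 2 left out. A lone library left in a group was assumed to vary like the other groups.

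The replicate numbers did not pair the libraries by the check used: same-numbered libraries correlated in their deviations by 0.0633 (MLL2 KO with control), 0.0440 (PRMT1 KD with control) and 0.197 (PRMT1 KD with MLL2 KO), which with 2 pairs is only a hint. With the replicate block, 3, 7 and 2 of the 10 genes and 4512, 8710 and 7529 of all genes were called in MLL2 KO, in PRMT1 KD and between them. The 2 gained in PRMT1 KD were AHCYL1 (-0.20, adjusted p = 0.0433) and DDAH2 (-0.57, adjusted p = 0.0498). DDAH2, at 86 to 157 counts a library, had the widest intervals of the 10 genes.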
